A study of Mus musculus with 8 samples.

Results

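The 44 genes described here act in G2 and mitosis: they encode the kinases that start division, the spindle and its motors, the kinetochore, the checkpoint that watches over it and the machinery of cytokinesis. They were taken by symbol from a count table of 23282 named genes, all 44 were found, and all passed the filter on low counts, with 552 to 17953 reads per gene and library. Each sample is RNA from 2000 hematopoietic stem and progenitor cells, sorted out of mouse bone marrow, whose cDNA was amplified before sequencing. The 8 samples form 2 groups: 4 carry the label Hdc-/-, for mice on a C57BL/6 background that lack the histamine-producing enzyme histidine decarboxylase, and 4 are wild type (WT) from C57BL/6. The sources used here do not give the deleted part of Hdc, the sort markers or the sex and age of the mice. They also do not say whether each sample came from its own mouse, so p-values measure the spread between samples, which may be technical.

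Most stem cells of the marrow rest outside the cell cycle, while the progenitors that they feed divide quickly. RNA of mitotic genes is made late in the cycle and destroyed as cells leave mitosis, and its level is highest in cells in G2 and mitosis. Transcription of these genes is known to run through CCAAT boxes, bound by NF-Y, and through the cell cycle genes homology region (CHR), to which the DREAM complex binds in resting cells and the MuvB complex with B-Myb and FoxM1 in dividing ones.

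Sequencing depth, as reads counted in genes, ran from 17218697 to 19775106 over the libraries labelled Hdc-/- and from 16322738 to 18054954 over the WT libraries. A single library of the group labelled Hdc-/- carries no sample number and is called the unnumbered library; values are given for libraries 1, 2, 3 and the unnumbered one, then for WT 1 to 4. WT 1 stood apart: the chi-square statistic per gene was 23.5 to 27.7 against the other WT libraries and 6.84 to 11.7 in the other pairs within a group. Hdc itself went against the labels, with 875, 773, 821 and 740 reads in the libraries labelled Hdc-/-, against 275, 199, 261 and 263 reads in WT (log2 fold change 1.58, SE 0.11, edgeR adjusted p = 6.4e-08), so every direction below rests on the labels. Levels are CPM, the reads of a gene scaled to the total of its library. The progenitor genes Kit and Cd34 were high in both groups: Kit averaged 1481 ± 53.5 CPM over the 4 libraries labelled Hdc-/- and 1190.1 ± 258 CPM over the 4 WT libraries (SD), and Cd34 averaged 1365 ± 23.4 CPM over the 4 libraries labelled Hdc-/- and 1369.9 ± 36.8 CPM over the 4 WT libraries (SD).

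The libraries labelled Hdc-/- held less RNA of mitotic genes than WT, by a small step, with a negative median in each of the 8 roles they fill. The 3 genes listed under cytokinesis had no call by edgeR with all 8 libraries, and their groups overlapped. All 44 genes had a negative log2 fold change, with a median of -0.26, or -16.2% on the linear scale, against a median of 0.00407 over the 13005 genes tested, of which 49.1% were negative. At an adjusted p under 0.05 by edgeR's quasi-likelihood test, 16 of the 44 fell and 0 rose. Of all genes tested, 2.71% fell and 2.05% rose (4.76% in either direction). The 44 genes were chosen with earlier results of these data known, so their contrast with all genes is a description and not a test. An unadjusted p under 0.05 was found for 34 of the 44 as lower and 0 as higher, against 9.46% of all genes that were lower and 9.26% that were higher. DESeq2 called 24 of the 44 lower and 0 higher, and limma-voom 16 and 0. Among all genes, DESeq2 called 500 lower and 448 higher, limma-voom 351 and 268, and edgeR 352 and 267. DESeq2 was run on all named genes with its own filter, so its counts are not shares of the 13005. Every library labelled Hdc-/- lay below every WT library in 22 of the 44, against 6.88% of all genes tested; the reverse held in 0 of the 44, against 5.64% of all genes. Among the 6755 tested genes with mean levels in the range of these 44 (33.8 to 886 CPM) 2.62% fell, and the groups did not overlap as lower in 7.8%. RNA was taken from pooled cells, so fewer cells in mitosis and less of these RNAs per cell cannot be told apart.

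The count of falls moved with single libraries. Leaving out a library labelled Hdc-/-, 14 genes fell without library 1, 8 without library 2, 7 without library 3 and 10 without the unnumbered one. Falls among all genes tested dropped too in these 4 fits, to 278, 264, 242 and 278, against 352 with all 8 libraries. Leaving out a WT library, 14 of the 44 fell without WT 2, 17 without WT 3, 8 without WT 4 and 22 without WT 1, which stood apart. Falls among all genes tested were 286, 322, 278 and 433 in these fits. Of the 16 calls, 9 were lost without library 3 and in 4 or more of the 16 alternative fits: those of Nuf2, Kif2c and Top2a in 4, of Ccna2, Plk1, Kif20b and Birc5 in 5, of Cdc20 in 6 and of Kif20a in 7. The calls of Bub1b and Cdca8 held in all, and those of Cdk1, Aurkb, Hmmr, Kif22 and Tpx2 were lost in 1. The median over the 44 lay between -0.30 and -0.22 whichever of the 8 libraries was left out.

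Summed over the 44 genes, the level was 7088, 6837, 6531 and 6678 CPM in the libraries labelled Hdc-/-, against 8109, 7609, 7858 and 8157 CPM in WT. The groups did not overlap, and the distance between the highest library labelled Hdc-/- and the lowest WT library was smaller than the range within either group. None of the 44 genes had its highest level of all 8 libraries in a library labelled Hdc-/-, and none its lowest in a WT library. Within the group labelled Hdc-/-, library 1 was the highest for 25 of the 44 and library 3 the lowest for 19. Within WT, WT 1 was the highest for 23 and WT 4 for 18, while WT 2 was the lowest for 18.

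**Figure D1:**
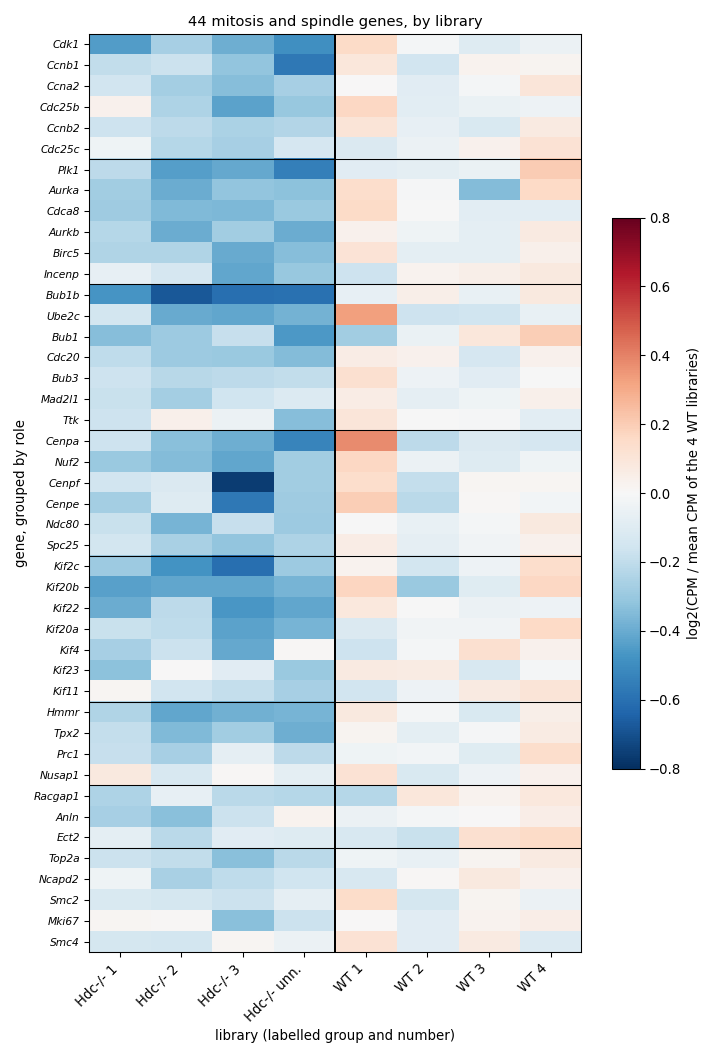
Level of each of the 44 genes (rows, grouped by role and separated by lines) in each library (columns, libraries labelled Hdc-/- to the left of the line, WT to the right), as log2 of CPM over the mean CPM of the 4 WT libraries; blue is lower, red higher, and unn. is the unnumbered library. The 4 columns labelled Hdc-/- are mostly blue, with medians of -0.18 in library 1 to -0.32 in library 3, and Nusap1, Cdc25b, Kif11 and Mki67 lie at or just above 0 in library 1.

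RefSeq promoter windows, 250 bases before to 50 bases after the annotated start in GRCm38.p6, were at hand for 37 of the 44 genes. They were searched on both strands for CCAAT and for the CHR written as TTTGAA or TTCGAA. In 26 of the 37 genes, bases just after the start matched a GENCODE vM21 transcript of the gene. Distances from the start are less certain in the rest. The box CCAAT was found in 29 of the 37 (78.4%), against 37.4% of all 32851 windows. A CHR was found in 31 of the 37 (83.8%), against 19.2% of all windows, and both motifs in 27 (73.0%), against 7.53%. A gene counted if any of its windows held the motif, while all windows were counted singly. In the further mitosis genes described below, 31 of 57 with a window (54.4%) held a CHR and 22 (38.6%) both motifs. A CHR was in 38.9% of transcription regulators of cell cycle genes, 20% of S phase genes and 11.1% of anaphase-promoting complex and cohesin genes. Among the 37 genes, 27 of the 31 with a CHR had one starting between 30 bases before the start and the end of the window. In the same 37, 44 of the 67 CCAAT boxes began in the 100 bases before the start. Of these 37 genes 12 fell, of which 10 held a CHR and 8 held both motifs. The other 25 did not pass, of which 21 held a CHR and 19 held both, so most genes of both kinds held them. A match of letters is a description and does not show that a factor binds.

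The windows of the 5 genes with the smallest p among those with a CHR are shown because these genes lead the calls below and each has at least 1 CCAAT box upstream of a CHR near the start; they run 5′ to 3′ along the gene, and capitals mark CCAAT and the CHR, which read ATTGG and TTCAAA where they lie on the other strand.
Bub1b, chr2:118597961-118598260, plus strand: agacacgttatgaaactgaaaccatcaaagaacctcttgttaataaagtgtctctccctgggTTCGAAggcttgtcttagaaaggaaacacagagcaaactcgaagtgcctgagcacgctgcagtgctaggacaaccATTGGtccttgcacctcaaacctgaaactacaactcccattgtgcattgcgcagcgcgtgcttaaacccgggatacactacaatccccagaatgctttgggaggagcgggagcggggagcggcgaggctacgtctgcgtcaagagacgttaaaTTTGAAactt
Cdk1, chr10:69352863-69353162, minus strand: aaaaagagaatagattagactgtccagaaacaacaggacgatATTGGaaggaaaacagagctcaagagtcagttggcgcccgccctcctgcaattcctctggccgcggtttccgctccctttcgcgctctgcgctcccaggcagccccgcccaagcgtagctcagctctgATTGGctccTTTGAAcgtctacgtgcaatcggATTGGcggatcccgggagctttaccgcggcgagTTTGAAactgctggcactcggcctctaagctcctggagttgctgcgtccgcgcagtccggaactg
Kif22, chr7:127042371-127042670, minus strand: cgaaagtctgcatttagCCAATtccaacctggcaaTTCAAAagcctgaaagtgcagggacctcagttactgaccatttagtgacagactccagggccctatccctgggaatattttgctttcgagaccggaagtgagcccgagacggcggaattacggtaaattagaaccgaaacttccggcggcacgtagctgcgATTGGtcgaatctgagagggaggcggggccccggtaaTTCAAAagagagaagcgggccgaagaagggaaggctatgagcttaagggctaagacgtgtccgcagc
Cdca8, chr4:124936868-124937167, minus strand: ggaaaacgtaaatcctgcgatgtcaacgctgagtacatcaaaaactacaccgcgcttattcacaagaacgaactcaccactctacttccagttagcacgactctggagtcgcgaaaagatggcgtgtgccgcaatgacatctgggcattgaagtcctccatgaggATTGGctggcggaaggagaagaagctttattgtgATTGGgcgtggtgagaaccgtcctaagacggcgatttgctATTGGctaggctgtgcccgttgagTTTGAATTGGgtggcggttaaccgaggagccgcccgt
Hmmr, chr11:40733388-40733687, minus strand: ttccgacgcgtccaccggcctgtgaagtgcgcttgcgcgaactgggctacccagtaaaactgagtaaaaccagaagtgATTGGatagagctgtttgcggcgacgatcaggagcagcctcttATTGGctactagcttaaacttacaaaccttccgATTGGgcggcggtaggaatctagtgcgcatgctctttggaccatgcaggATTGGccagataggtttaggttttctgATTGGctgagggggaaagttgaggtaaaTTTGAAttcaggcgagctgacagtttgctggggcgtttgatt
The Cdk1 window has 3 CCAAT boxes and 2 CHR matches, the nearer of which begins 15 bases before the start. In Cdca8 a CHR and a CCAAT box overlap, the only such case among the 37 genes, and Hmmr has 5 CCAAT boxes.

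**Figure D2:**
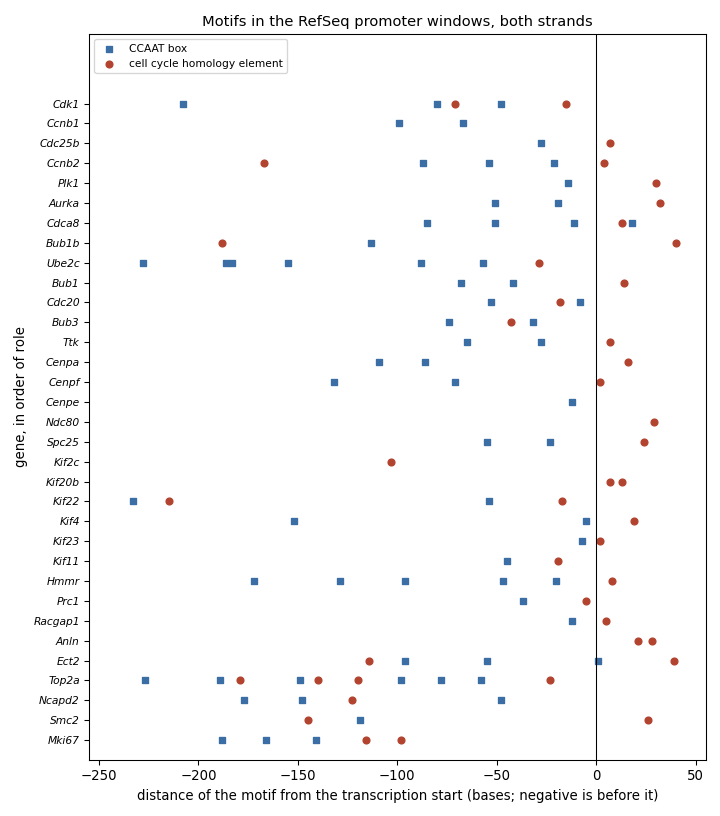
Distance in bases from the annotated start (x axis, negative before it) of each CCAAT box (blue squares) and each CHR, the cell cycle homology element (red circles), for every gene with a match in its RefSeq window (rows, in order of role). CHR matches crowd around the start, with 27 of 31 genes having one that begins no more than 30 bases before it or after it, and most CCAAT boxes (44 of 67) begin in the 100 bases before the start.

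Cyclins and the control of Cdk1 come first in the order of events. Cdk1, the kinase that drives cells into mitosis, had 122, 139, 127 and 119 CPM in the libraries labelled Hdc-/-, against 186, 165, 155 and 162 CPM in WT. All 4 libraries labelled Hdc-/- lay below all WT libraries, and Cdk1 fell (log2 fold change -0.40, SE 0.07, edgeR adjusted p = 0.00284). Its partner cyclin A2, encoded by Ccna2 and active from S phase into G2, had 187, 173, 164 and 173 CPM in the libraries labelled Hdc-/-, against 209, 196, 206 and 223 CPM in WT. The groups did not overlap here either, with WT 4 the highest, and Ccna2 fell (log2 fold change -0.26, SE 0.06, edgeR adjusted p = 0.0255). The B-type cyclins, which activate Cdk1 at the onset of mitosis, did not pass: Ccnb1 averaged 82.4 ± 9.92 CPM over the 4 libraries labelled Hdc-/- and 102 ± 7.07 CPM over the 4 WT libraries (SD), and Ccnb2 averaged 149 ± 4.10 CPM over the 4 libraries labelled Hdc-/- and 173 ± 12.9 CPM over the 4 WT libraries (SD). Their adjusted p was 0.0643 and 0.0754, although the groups did not overlap in either gene. The unnumbered library was the lowest of all 8 for Ccnb1, at 68.6 CPM. The phosphatases that release Cdk1 from inhibition also missed the threshold. Cdc25b stood at -0.23, SE 0.10 on the log2 scale, and Cdc25c had 34.9, 30.5, 29.7 and 32.6 CPM in the libraries labelled Hdc-/-, against 33.0, 34.6, 36.6 and 38.6 CPM in WT. The groups overlapped for Cdc25c, whose interval includes 0 (log2 fold change -0.16, 95% interval -0.37 to 0.04, edgeR adjusted p = 0.404). In all, 2 of these 6 genes fell, against 2.71% of all genes tested.

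Of 6 kinases of the spindle and members of the chromosomal passenger complex, 4 fell, against 2.71% of all genes tested. Only 2 fell without WT 4, and 2 without any 1 of libraries 2, 3 and unnumbered of the group labelled Hdc-/-. The passenger complex corrects wrong attachments of chromosomes and later directs cytokinesis. Its kinase Aurkb had 129, 115, 124 and 114 CPM in the libraries labelled Hdc-/-, against 154, 147, 143 and 158 CPM in WT. The groups were apart, and Aurkb fell (log2 fold change -0.32, SE 0.07, edgeR adjusted p = 0.0075). Cdca8, which encodes the targeting subunit borealin, had 154, 147, 146 and 153 CPM in the libraries labelled Hdc-/-, against 209, 187, 177 and 177 CPM in WT. The libraries labelled Hdc-/- were close to each other, WT 1 was the highest, and Cdca8 fell (log2 fold change -0.32, SE 0.07, edgeR adjusted p = 0.00726). Birc5, the survivin subunit, averaged 76.8 ± 4.35 CPM over the 4 libraries labelled Hdc-/- and 94.9 ± 6.15 CPM over the 4 WT libraries (SD), and also fell (log2 fold change -0.30, SE 0.08, edgeR adjusted p = 0.0262). The scaffold subunit Incenp did not pass: it had 121, 115, 94.7 and 102 CPM in the libraries labelled Hdc-/-, against 112, 129, 130.0 and 133 CPM in WT. There the groups overlapped through library 1 and library 2 labelled Hdc-/- and WT 1 (log2 fold change -0.22, 95% interval -0.40 to -0.04, edgeR adjusted p = 0.158). Plk1, the polo-like kinase of centrosome maturation and mitotic entry, had 59.3, 50.4, 51.5 and 46.9 CPM in the libraries labelled Hdc-/-, against 64.4, 64.8, 66.1 and 79.0 CPM in WT. WT 4 was far above the other WT libraries, the groups did not overlap, and Plk1 fell (log2 fold change -0.40, SE 0.09, edgeR adjusted p = 0.0206). Aurka, the aurora kinase of the spindle poles, had a difference of similar size that did not pass (log2 fold change -0.33, SE 0.10, edgeR adjusted p = 0.0757), with WT 3 at 56.1 CPM among libraries labelled Hdc-/- at 54.2 to 58.8 CPM.

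In the spindle checkpoint, which delays anaphase until all kinetochores are attached, Bub1b moved the most of all 44 genes. It encodes BubR1, part of the complex that holds back the anaphase-promoting complex, and had 177, 154, 162 and 163 CPM in the libraries labelled Hdc-/-, against 235, 254, 236 and 259 CPM in WT. The lowest WT library was 235 CPM and the highest library labelled Hdc-/- 177 CPM, and Bub1b fell (log2 fold change -0.58, SE 0.06, edgeR adjusted p = 1.7e-05), a change of -33.3%. Bub1b lies on the chromosome of Hdc, 99 tested genes before it in RefSeq order. Among the 200 tested genes within 100 of Hdc, 20 fell and 21 rose, so genes there were called more often than the 2.71% and 2.05% of all genes. The call of Bub1b held in all 16 alternative fits, in which its fold change ranged from -0.62 to -0.56.

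The other checkpoint genes moved less. Bub1, the kinase that recruits checkpoint proteins, lies 22 tested genes beyond Hdc and did not pass (log2 fold change -0.32, SE 0.10, edgeR adjusted p = 0.0729); its WT 1 level of 92.2 CPM lay within the range labelled Hdc-/-, 81.2 to 98.6 CPM. Bub3, which binds both, averaged 215 ± 3.63 CPM over the 4 libraries labelled Hdc-/- and 247 ± 16.3 CPM over the 4 WT libraries (SD), and did not pass either (adjusted p = 0.0699 by edgeR), although the groups did not overlap. Mad2l1, the inhibitor of Cdc20, stood at -0.18, SE 0.07 on the log2 scale and did not pass. Ttk, the kinase at the head of the pathway, had 55.5, 64.1, 60.3 and 49.0 CPM in the libraries labelled Hdc-/-, against 66.4, 62.0, 61.6 and 58.6 CPM in WT. These groups overlapped, and the interval for Ttk includes 0 (log2 fold change -0.12, 95% interval -0.31 to 0.07, edgeR adjusted p = 0.531). Cdc20, the activator of the anaphase-promoting complex that the checkpoint restrains, had 103, 97.3, 96.8 and 93.6 CPM in the libraries labelled Hdc-/-, against 124, 122, 108 and 122 CPM in WT. No library labelled Hdc-/- reached the lowest WT library, WT 3, and Cdc20 fell (log2 fold change -0.28, SE 0.07, edgeR adjusted p = 0.0248). Ube2c, the ubiquitin-conjugating enzyme of that complex, did not pass (log2 fold change -0.33, SE 0.10, edgeR adjusted p = 0.0768): WT 1 stood at 183 CPM and the other WT libraries at 129, 131 and 139 CPM.

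Of 6 centromere and kinetochore genes, 1 fell, against 2.71% of all genes tested. All 6 were lower at an unadjusted p under 0.05, against 9.46% of all genes. Nuf2, a subunit of the Ndc80 complex that grips microtubules, had 64.0, 61.8, 58.9 and 64.9 CPM in the libraries labelled Hdc-/-, against 88.2, 76.1, 73.3 and 76.7 CPM in WT. The groups were apart, WT 1 was the highest, and Nuf2 fell (log2 fold change -0.33, SE 0.08, edgeR adjusted p = 0.0225). Its partners Ndc80 and Spc25 missed the threshold with groups that did not overlap (-0.25, SE 0.07, adjusted p = 0.0635 for Ndc80, and -0.24, SE 0.07, adjusted p = 0.0512 for Spc25, both by edgeR). Cenpa, the histone H3 variant that marks centromeres, stood at -0.35, SE 0.12 on the log2 scale and did not pass. Its WT 1 level, 137 CPM, was well above those of the other WT libraries, 90.7 to 96.9 CPM. The kinetochore motor Cenpe and the large kinetochore protein Cenpf shared a low library: library 3 labelled Hdc-/- had 79.9 CPM of Cenpe and 86.2 CPM of Cenpf. Cenpe did not pass (log2 fold change -0.30, SE 0.10, edgeR adjusted p = 0.107). Cenpf had 131, 135, 86.2 and 120.5 CPM in the libraries labelled Hdc-/-, against 161, 128, 147 and 148 CPM in WT. Its groups overlapped, and it did not pass (log2 fold change -0.31, 95% interval -0.55 to -0.06, edgeR adjusted p = 0.156).

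Of 7 kinesin motors 4 fell, against 2.71% of all genes tested. Only 1 fell when library 2 or library 3 labelled Hdc-/- or WT 4 was left out. Kif22, a motor that pushes chromosome arms outward, had 127, 145, 121 and 126 CPM in the libraries labelled Hdc-/-, against 178, 167, 163 and 163 CPM in WT. The groups did not overlap, library 2 was the highest of those labelled Hdc-/-, and Kif22 fell (log2 fold change -0.37, SE 0.07, edgeR adjusted p = 0.00344). Kif2c, which takes microtubules apart at kinetochores, had 57.7, 50.8, 46.5 and 57.8 CPM in the libraries labelled Hdc-/-, against 72.3, 64.0, 68.6 and 78.0 CPM in WT. The groups did not overlap, library 3 was the lowest, and Kif2c fell (log2 fold change -0.41, SE 0.09, edgeR adjusted p = 0.0149). Kif20b, a motor of late mitosis, had 69.2, 70.3, 70.2 and 72.2 CPM in the libraries labelled Hdc-/-, against 106, 76.2, 87.5 and 105 CPM in WT. The libraries labelled Hdc-/- lay close together while WT spread widely, and Kif20b fell (log2 fold change -0.41, SE 0.10, edgeR adjusted p = 0.0191). Kif20a, needed for cytokinesis, fell as well (log2 fold change -0.29, SE 0.08, edgeR adjusted p = 0.0401), although its call was lost in 7 of the 16 alternative fits. In GENCODE vM21 it shares 1271 of its 3999 exonic bases with Cdc23, so its count is uncertain. The other 3 motors did not pass: Kif4, of chromosome arms and the central spindle, stood at -0.20, SE 0.09, and Kif23, of the centralspindlin complex, at -0.17, SE 0.08. Kif11, which pushes spindle poles apart, had 247, 220.3, 215 and 203 CPM in the libraries labelled Hdc-/-, against 220.4, 238, 257 and 263 CPM in WT. Library 1 labelled Hdc-/- was above WT 1 and WT 2, and the interval for Kif11 includes 0 (log2 fold change -0.14, 95% interval -0.30 to 0.01, edgeR adjusted p = 0.3).

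Among 4 proteins of spindle microtubules, Hmmr and Tpx2 fell (50%, against 2.71% of all genes tested). Hmmr, which links microtubules at the poles, had 89.4, 79.3, 81.1 and 81.6 CPM in the libraries labelled Hdc-/-, against 112, 105, 97.3 and 109 CPM in WT. The libraries labelled Hdc-/- were all below WT 3, the lowest WT library (log2 fold change -0.35, SE 0.07, edgeR adjusted p = 0.00819). Tpx2, which activates Aurka on the spindle, had 150.2, 134, 141 and 131 CPM in the libraries labelled Hdc-/-, against 174, 162, 170.2 and 179 CPM in WT. Its groups were apart too (log2 fold change -0.30, SE 0.06, edgeR adjusted p = 0.0107). Tpx2 also lies on the chromosome of Hdc, 151 tested genes beyond it. Prc1, which bundles the central spindle, averaged 197 ± 11.3 CPM over the 4 libraries labelled Hdc-/- and 223 ± 16.3 CPM over the 4 WT libraries (SD) and did not pass (adjusted p = 0.15 by edgeR). Nusap1, which stabilises spindle microtubules, was the gene with the smallest difference of the 44. It had 225, 195, 214 and 201 CPM in the libraries labelled Hdc-/-, against 231, 195, 207 and 218 CPM in WT. The groups overlapped over nearly their whole range (log2 fold change -0.03, 95% interval -0.17 to 0.12, edgeR adjusted p = 0.872), and its sign turned positive in 3 of the 16 alternative fits.

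**Figure D3:**
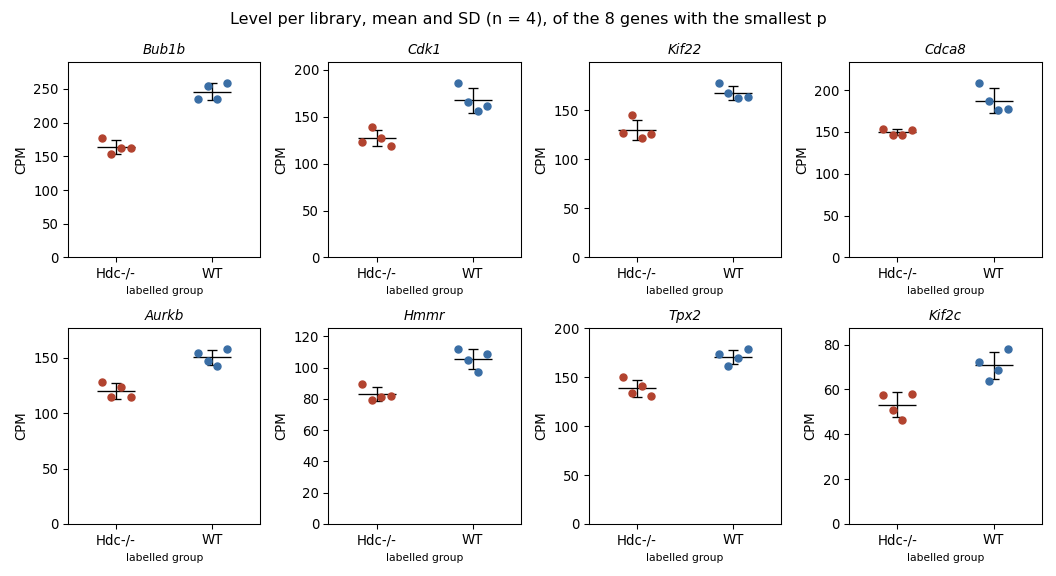
CPM in each library (points) of the 8 genes with the smallest p, libraries labelled Hdc-/- (red) left of WT (blue), with the mean and SD (black, n = 4 each); each vertical axis starts at 0. No point labelled Hdc-/- reaches the lowest WT point in any of the 8 genes, and the gap is widest for Bub1b.

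The 3 genes listed under cytokinesis had no call in the main fit. Kif20a and Aurkb, which fell, are counted under other roles. By edgeR 0 of 3 passed, with 1 lower at an unadjusted p under 0.05, against 9.46% of all genes tested. DESeq2 called 0, and limma-voom 0 without and 1 with sample quality weights. Without WT 1, edgeR called 1 of the 3 lower. Racgap1, of centralspindlin, stood at -0.19, SE 0.08 on the log2 scale, and Anln, a scaffold of the contractile ring, at -0.18, SE 0.08. Ect2, the activator of RhoA at the division plane, had 92.5, 84.1, 91.5 and 90.9 CPM in the libraries labelled Hdc-/-, against 89.4, 86.0, 107 and 108 CPM in WT. WT 1 and WT 2 lay among the libraries labelled Hdc-/-, and its interval includes 0 (log2 fold change -0.12, 95% interval -0.30 to 0.06, edgeR adjusted p = 0.49).

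Of 5 genes of mitotic chromosome structure 1 fell, against 2.71% of all genes tested. Top2a and Smc4 had the highest levels of the 44 when CPM was divided by exon length in kilobases: the mean over both groups was 169.7 CPM per kilobase for Top2a and 109.7 for Smc4, against 11.9 for Cenpf, the lowest of the 44. Top2a, the topoisomerase that untangles sister chromatids, had 848, 834, 758 and 824 CPM in the libraries labelled Hdc-/-, against 933, 917, 969.8 and 1004 CPM in WT. The groups did not overlap, library 3 was the lowest, and Top2a fell (log2 fold change -0.23, SE 0.05, edgeR adjusted p = 0.0183). Mki67, the proliferation marker that coats mitotic chromosomes, did not pass: it averaged 671 ± 75.7 CPM over the 4 libraries labelled Hdc-/- and 725 ± 31.3 CPM over the 4 WT libraries (SD) (log2 fold change -0.11, 95% interval -0.26 to 0.04, edgeR adjusted p = 0.432). Library 1 and library 2 labelled Hdc-/- had 732 and 732 CPM of Mki67, within the WT range of 681 to 754 CPM, and library 3 was the lowest at 575 CPM. The condensin subunits, which compact chromosomes, did not pass either. Ncapd2 stood at -0.16, SE 0.06, Smc2 at -0.13, SE 0.07, and Smc4 had 441, 439.7, 492 and 471 CPM in the libraries labelled Hdc-/-, against 527, 457, 510.0 and 450.0 CPM in WT. Smc4 overlapped between the groups (log2 fold change -0.08, 95% interval -0.21 to 0.06, edgeR adjusted p = 0.571).

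**Figure D4:**
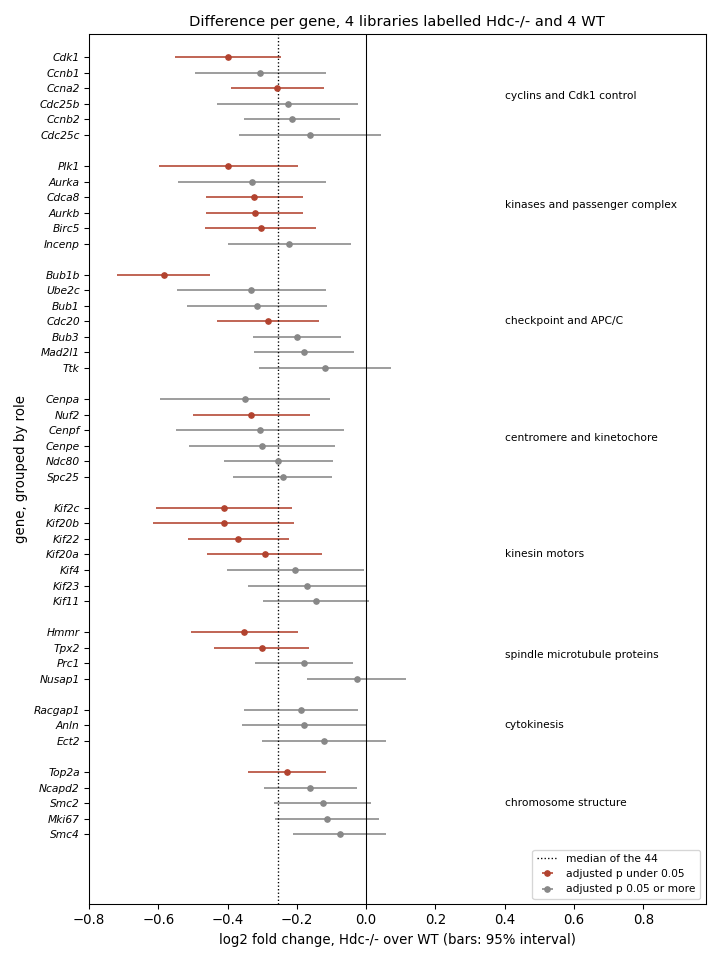
Log2 fold change (x axis, libraries labelled Hdc-/- over WT) of each of the 44 genes with its 95% interval, grouped by role; red marks an edgeR adjusted p under 0.05, and the dotted line the median of the 44. All points lie left of 0, 34 intervals lie wholly below it, Bub1b is farthest out at -0.58, and Nusap1 is nearest to 0 at -0.03.

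Within 100 tested genes of Hdc lie 4 of the 44: Bub1b, Nusap1 (73 before it), Bub1 (22 beyond) and Cdc25b (62 beyond). Only Bub1b of these fell. Of the other 40 genes 15 fell (37.5%, against 2.71% of all genes tested), with a median of -0.26. Of these 40, 7 fell without library 2, 6 without library 3 and 9 without the unnumbered one (all labelled Hdc-/-). Leaving out WT 4 gave 7. The 36 genes on other chromosomes had 14 falls (38.9%) and a median of -0.24. The median away from Hdc was close to that over all 44 genes. Besides Kif20a, 8 of the 44 share exonic bases with another gene in GENCODE vM21 (Kif4, Prc1, Ube2c, Ccna2, Nusap1, Plk1, Cdc25b and Cdc20), from 753 bases in Kif4 to 53 in Cdc20, so their counts are uncertain to that extent.

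Other cell cycle lists were set beside the 44 genes, described by counts and medians only. Of 69 further mitosis genes that were tested, 2 fell (2.90%, near the 2.71% of all genes tested) and 0 rose. Of the 69, 60 were negative (87.0%, against 49.1% of all genes), with a median of -0.17. An unadjusted p under 0.05 was found for 26 of the 69 as lower (37.7%, against 9.46% of all genes) and 0 as higher. Every library labelled Hdc-/- lay below every WT library in 11 of the 69 (15.9%, against 6.88% of all genes). DESeq2 called 7 of the 69 lower and limma-voom 2, against 500 and 351 among all genes. Leaving out 1 library, 5 of the 69 fell without library 1 labelled Hdc-/-, 7 without WT 1 and 3 without WT 3. Only 1 fell without library 2 or 3 labelled Hdc-/- or without WT 2. Their median level was 66.2 CPM, against 123 CPM for the 44. Tacc3, which stabilises spindle fibres, averaged 146 ± 4.55 CPM over the 4 libraries labelled Hdc-/- and 179 ± 2.08 CPM over the 4 WT libraries (SD) and fell (log2 fold change -0.30, SE 0.06, edgeR adjusted p = 0.0045), and Trip13, which recycles checkpoint complexes, also fell (-0.31, SE 0.08, adjusted p = 0.0225 by edgeR). Cdca5, the sororin gene, and Ncapg, of condensin, missed the threshold (-0.27, SE 0.08 and -0.27, SE 0.08). Of 30 S phase genes 1 fell (3.33%, against 2.71% of all genes tested), 0 rose and 26 were negative (median -0.11). An unadjusted p under 0.05 was found for 8 of the 30 as lower (26.7%, against 9.46% of all genes) and 0 as higher. Without WT 1, 2 of the 30 fell. The gene that fell with all 8 libraries was Pcna, the sliding clamp of replication (log2 fold change -0.47, SE 0.08, edgeR adjusted p = 0.00196), which lies 73 tested genes beyond Hdc. Gins2 and Cdc45, of the replicative helicase, stood at -0.27, SE 0.10 and -0.21, SE 0.08, and Rrm2, of nucleotide synthesis, at -0.17, SE 0.07. None of these 3 passed.

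Subunits of the anaphase-promoting complex and of cohesin, which are needed in mitosis but are less tied to it in expression, had a median of -0.04. By edgeR 0 of 22 passed and 1 had an unadjusted p under 0.05; DESeq2 and limma-voom, with and without sample quality weights, called 0 each. The cohesin subunit Smc1a (-0.15, SE 0.06), the cohesin acetyltransferase Esco2 (-0.20, SE 0.10) and the complex subunits Cdc16 (-0.13, SE 0.06) and Anapc11 (-0.15, SE 0.09) had the smallest p. Of 23 transcription regulators of cell cycle genes 1 rose and 1 fell (median -0.02). The share that fell was 4.35%, against 2.71% of all genes tested. Without WT 1, 2 of the 23 fell. Tfdp2, a dimer partner of E2F factors, had 126, 124, 124 and 131 CPM in the libraries labelled Hdc-/-, against 102, 99.5, 95.8 and 96.8 CPM in WT, with no overlap, and rose (log2 fold change 0.36, SE 0.06, edgeR adjusted p = 0.00237). Rbbp4, a histone-binding protein that is also part of MuvB, averaged 387 ± 34.7 CPM over the 4 libraries labelled Hdc-/- and 488 ± 24.4 CPM over the 4 WT libraries (SD) and fell (log2 fold change -0.33, SE 0.07, edgeR adjusted p = 0.00523). Rbl2, the p130 pocket protein of DREAM, and Tfdp1 did not pass (0.26, SE 0.10 and -0.13, SE 0.06). Differences between these lists and the 44 genes were not tested.

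**Figure D5:**
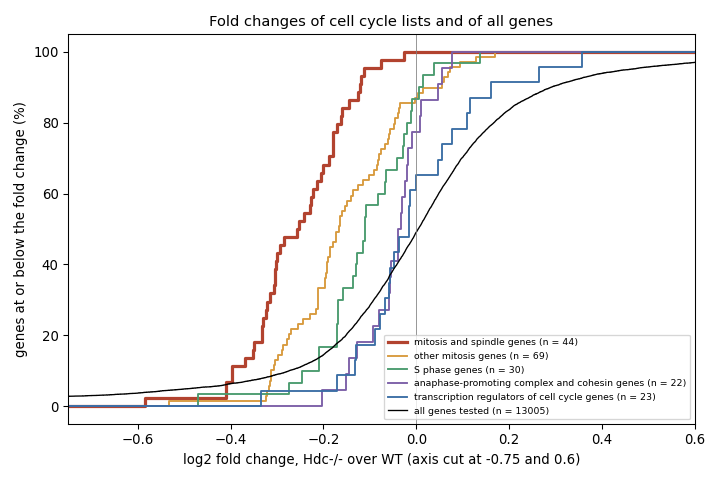
Share of genes (y axis, %) at or below each log2 fold change (x axis, libraries labelled Hdc-/- over WT) for the 44 mitosis and spindle genes, 4 other cell cycle lists and all genes tested. The curve of the 44 genes lies left of the others over the middle of its range, with a median of -0.26 against -0.17 for further mitosis genes and -0.11 for S phase genes.

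Markers of neutrophils and red cells moved by more than the mitotic genes, with median log2 fold changes of -1.44 and 3.70. The marker counts below stand against 2.71% of all genes tested that fell and 2.05% that rose by edgeR. At an unadjusted p under 0.05, 9.26% of all genes were higher. All 10 neutrophil markers fell, with a summed level of 805 to 1408 CPM in the libraries labelled Hdc-/-, against 2644 to 4071 CPM in WT. Of 7 tested B cell markers 5 fell, and the 8 listed summed to 139 to 154 CPM in the libraries labelled Hdc-/-, against 204 to 260.1 CPM in WT. All 8 red cell markers rose, with a summed level of 1062 to 1195 CPM in the libraries labelled Hdc-/-, against 126 to 157 CPM in WT. Of 8 macrophage markers 0 passed in edgeR, with 6 higher at an unadjusted p under 0.05, 3 higher by DESeq2 and 1 by limma-voom, and their sum was 83.6 to 93.7 CPM in the libraries labelled Hdc-/-, against 50.8 to 70.0 CPM in WT. The T cell genes Cd3d, Cd3e and Cd3g had at most 10 reads in any library, Cd3g had 0 reads in all WT libraries, and of the T and NK list Nkg7 fell (-0.40, SE 0.07). The T and NK list summed to 261 to 277 CPM in the libraries labelled Hdc-/-, against 326 to 415 CPM in WT. Nearly all of that sum was Nkg7. This gene alone ran from 258 to 274 CPM under the label Hdc-/-, and from 323 to 411 CPM in WT. The sum therefore says little about the rest of the list. Klrb1c stood at 0.13, SE 0.34 and Ncr1 at -0.95, SE 0.95, and neither passed. Among the stem and progenitor markers, Flt3 rose (0.24, SE 0.06) and Ly6a fell (-1.15, SE 0.08). The part of these cell types in the difference of mitotic genes was not tested.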

How the data were processed

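Raw read counts per gene symbol for 8 libraries were deposited by the authors in 1 table. Per the labels' protocols, RNA was isolated with the PicoPure kit, SMARTer chemistry amplified the cDNA and Nextera XT was used for library preparation. The submitters' processing notes name HTSeq 0.6.1, TopHat2 2.0.4, Bowtie2, bcl2fastq 1.8.4 and build mm9; the sources used here give no annotation, strand setting or counting mode. Of the 44 genes, 9 overlap exons of another gene in GENCODE vM21, where reads could be lost or shared. The labels name no molecular identifiers. Of 23284 rows, 2 name no gene (at most 0.0320% of reads) and were left out. Columns were matched to titles by name; 1 column of the group labelled Hdc-/- has no sample number. No value column was left unused.

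The test was edgeR 4.0.16 in R 4.3.3 (glmQLFit, robust; glmQLFTest; TMM; filterByExpr with minimum count 10 and total 15; two-sided), which kept 13005 genes, all 44 among them; CPM use the TMM-scaled library sizes. Adjusted p is Benjamini-Hochberg over the 13005 genes. SE is the absolute log2 fold change over the square root of F. Alternatives used DESeq2 1.42.0 and limma 3.58.1. DESeq2 was run on all named genes with its own filter. The edgeR fits on fewer libraries applied the filter on low counts anew, so the number of genes tested can differ between fits. The scripts were tested on simulated data. The full list of stem and progenitor markers is not reported here. RefSeq (GRCm38.p6) gave names, order and promoter windows. The lowest count of any of the 44 genes in a library was 552 reads. The members and lists were chosen with earlier results of these data known. Per-library values are given for the 14 genes with the smallest p, the gene with the largest p of each role, and some others chosen after their values were seen; other lists show the 4 genes with the smallest p.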

Additional observations from a re-analysis of the deposited data

Results flagged for a closer look

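In 8 of the 122 groups of 4 libraries examined, 1 library lay far from the other 3 of its group; by chance about 1 in 20 groups does. Ube2c stood at 132 CPM in library 1 labelled Hdc-/-, against 109 to 112 CPM in the other 3 of its group. Racgap1 stood at 139.8 CPM in library 2 labelled Hdc-/-, against 124 to 126 CPM. Pcna was lowest in the unnumbered library at 80.9 CPM, against 85.2 to 85.8 CPM. WT 1 was far above the other WT libraries for Cdc25b (98.8 CPM, against 83.3 to 85.7 CPM), Cenpa (137 CPM, against 90.7 to 96.9 CPM) and Pcna (138 CPM, against 109 to 111 CPM). WT 4 was high for Plk1 (79.0 CPM, against 64.4 to 66.1 CPM), and WT 3 was low for Cdc20 (108 CPM, against 122 to 124 CPM). WT 1 accounts for 3 of the 8, and it is the library that stood apart over all genes.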

How the results depend on the processing

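All 44 genes kept a negative sign in the 16 alternative fits, apart from Nusap1, which had 0.0028 with the replicate block, 0.0021 without library 2 labelled Hdc-/- and 0.015 without WT 1 (range -0.067 to 0.015 with 1 library left out), and in a fit added after seeing the data on samples numbered 1 to 3 with no block (0.0018). Of the 16 calls, those of Bub1b and Cdca8 held in all alternatives, 7 including these were lost in at most 1, and 9 were lost in 4 or more; 11 other genes passed in at least 1. With RLE or upper quartile scaling, either filter or limma-voom, the same 16 genes fell. DESeq2 gave 24 falls among the 44 genes, 500 falls and 448 rises among all genes and 7 falls among further mitosis genes; limma-voom with sample quality weights gave 23, 502, 428 and 10. Leaving out 1 library at a time, the ranges were 7 to 22 falls among the 44 genes, 6 to 20 among those outside 100 tested genes of Hdc, 1 to 7 among further mitosis genes, 1 to 2 among S phase genes, 1 to 2 among transcription regulators, and 242 to 433 falls and 137 to 382 rises among all genes, against 352 and 267 with all 8 libraries.

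Same-numbered libraries did not deviate together (correlations of -0.061, -0.017 and -0.00033). The replicate block could be fitted only on the samples numbered 1 to 3, and gave 2 falls among the 44 genes (Bub1b among them), 1 outside 100 tested genes of Hdc, 0 among further mitosis genes, 0 among transcription regulators, and 189 falls and 123 rises among all genes. The same 6 libraries with no block gave 4, 3, 1, 0, 211 and 134. With spans of 50 and 200 tested genes around Hdc, 16 and 14 falls lay outside. The cause of these changes was not tested, other than that fewer samples enter some fits. Each of the 44 genes had at least 552 reads in every library.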
